A study of Mus musculus with 24 samples.

Results

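The TCF/LEF family loci are the regions of the 4 mouse genes Tcf7, Lef1, Tcf7l1, and Tcf7l2. A peak was counted to them when it overlapped a gene body of GENCODE vM21 or the 50 kb on either side by at least 1 base. This gave 265 of the 315145 peaks in 6 peak lists of ARID1B, FOXP1, and TCF7L2. The product of 1 of these genes, TCF7L2, is thus also 1 of the 3 immunoprecipitated transcriptional regulators (TRs).

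TCF/LEF proteins are the DNA-binding end points of canonical Wnt signaling. They bind a short AT-rich site through an HMG box, repress their targets together with Groucho/TLE corepressors, and activate them when β-catenin enters the nucleus and takes the place of the corepressor. LEF1 acts mostly as an activator and TCF7L1 mostly as a repressor, whereas TCF7 and TCF7L2 can do either. Several of the genes also have internal starts, whose products lack the part of the protein that binds β-catenin. In the embryonic cortex, Wnt signaling acts on progenitor proliferation and on neurogenesis.

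ChIP-seq, in which chromatin fragments are enriched with an antibody and sequenced, was done on the cortex of wild-type (WT) mouse embryos of 2 stages, E15.5 and E18.5 (E, embryonic day). Antibodies were against ARID1B, a member of the BAF complex that remodels chromatin, the forkhead factor FOXP1, and TCF7L2, which the sample labels call TCF4. For every TR and stage there were 2 ChIP libraries and 2 input libraries, 24 in all, with no treatment and no altered allele in any group. Per the study's methods, the peaks used were called after merging the replicates, and each TR and stage has 1 list. In GEO each list is attached to 1 of the 2 replicates, and the lists do not say which libraries entered them. They were read as merged calls. In either case values carry no replicate error, and no difference between lists was tested.

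The height of a peak is its fold enrichment, the scaled reads over the summit plus 1, divided by a constant background plus 1. The added 1 weighs most in FOXP1 at E18.5, where the background was 2.81 reads, against 6.13 to 8.63 in the other lists. Where a height below is given with a 95% counting interval, this comes from the Poisson distribution of the reads at the summit. Such an interval covers counting error only, and it is somewhat too high because a summit is a maximum. Solving the lists for their background showed that the smaller of ChIP and input held 26.3 M reads in the FOXP1 list of the later stage, whereas the other lists had 57.3 to 80.7 M. The lowest peak of FOXP1 at E18.5 had a fold enrichment of 3.21, whereas the others reached down to between 2.33 and 2.66. Of the promoters of the cortical genes Emx1, Pax6, Tbr1, Neurod6, Neurod2, and Eomes, 5 of 6 had peaks in FOXP1 at E18.5 and 6 of 6 in the other lists. Those of the microglial genes Csf1r, Cx3cr1, P2ry12, and Aif1 and of the liver genes Alb, Apoa1, Ttr, and Serpina1a had none, those of 5 endothelial genes had at most 1, and those of 4 blood genes had at most 1. Of the thalamic genes Gbx2, Lhx9, Lhx2, and Calb2, the last 2 of which the cortex also expresses, 2 to 4 had peaks, with the fewest in FOXP1 at E18.5. A peak at a promoter is not a measure of expression, and the part of other tissue in the results was not tested.

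The sequences below are from peaks of the 4 genes that are described further on. Capitals mark CTTTGA or its reverse complement, the core of a TCF/LEF site, and a further capital T or A where the match extends to CTTTGAT. All are the plus strand of GRCm38, and all but the shortest are windows around a summit. The 5′ end of each Tcf7 and Tcf7l1 transcript lies toward the right, since these genes are on the minus strand. The window upstream of Lef1 holds the highest TCF7L2 peak of the family, the intronic Lef1 window 2 cores side by side, and the Tcf7 promoter a core under its main TCF7L2 peak. The first Tcf7l2 window holds a core under a weak peak. The second Tcf7l2 window lies at the place of the highest ARID1B peaks of the family, without a core. The Tcf7l1 window, also without a core, is that of the highest TCF7L2 peak of this gene outside promoters.
Lef1, 4.4 kb upstream of the TSS, chr3:131105983-131106182: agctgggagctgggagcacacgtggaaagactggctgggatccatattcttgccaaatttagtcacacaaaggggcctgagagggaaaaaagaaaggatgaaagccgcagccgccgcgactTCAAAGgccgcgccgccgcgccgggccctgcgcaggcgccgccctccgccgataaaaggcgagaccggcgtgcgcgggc
Lef1, intron, 26.8 kb downstream of the TSS, chr3:131137192-131137391: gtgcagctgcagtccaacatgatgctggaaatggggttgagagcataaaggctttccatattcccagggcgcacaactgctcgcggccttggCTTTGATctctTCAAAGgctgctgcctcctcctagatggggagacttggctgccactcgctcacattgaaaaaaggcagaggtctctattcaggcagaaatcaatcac
Tcf7, site under the main promoter peak, chr11:52283357-52283386: cgggtcggaacATCAAAGgcaccgcgggca
Tcf7, 1.4 kb upstream of the TSS, chr11:52284326-52284525: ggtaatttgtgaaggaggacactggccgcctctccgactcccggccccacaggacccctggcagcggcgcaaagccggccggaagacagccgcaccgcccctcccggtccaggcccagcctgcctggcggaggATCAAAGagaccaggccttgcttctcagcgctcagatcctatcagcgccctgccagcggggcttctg
Tcf7l2, intron, 3.2 kb downstream of the TSS, chr19:55744881-55745080: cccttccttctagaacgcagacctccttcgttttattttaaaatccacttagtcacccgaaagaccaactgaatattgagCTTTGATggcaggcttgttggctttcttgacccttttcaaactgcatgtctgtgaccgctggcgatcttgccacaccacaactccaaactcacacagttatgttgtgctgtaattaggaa
Tcf7l2, intron, 138.9 kb downstream of the TSS, chr19:55880623-55880822: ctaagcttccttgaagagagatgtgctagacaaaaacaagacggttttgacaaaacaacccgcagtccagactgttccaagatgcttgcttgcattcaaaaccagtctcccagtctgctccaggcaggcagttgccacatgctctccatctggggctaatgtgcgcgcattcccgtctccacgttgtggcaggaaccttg
Tcf7l1, intron, 122.0 kb downstream of the TSS, chr6:72667157-72667356: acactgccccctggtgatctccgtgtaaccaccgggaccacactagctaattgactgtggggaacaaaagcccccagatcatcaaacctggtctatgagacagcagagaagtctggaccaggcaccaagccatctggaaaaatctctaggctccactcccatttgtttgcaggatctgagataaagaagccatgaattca

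The 265 peaks were spread over all 4 genes. Tcf7 (chr11:52252371-52283014, minus strand) had 29, Lef1 (chr3:131110471-131224356, plus strand) 61, Tcf7l1 (chr6:72626378-72789254, minus strand) 81, and Tcf7l2 (chr19:55741820-55933654, plus strand) 94. Tcf7 is by far the shortest gene, and per 100 kb of gene body and flanks the range was narrower, with 22.2 peaks at Tcf7, 28.5 at Lef1, 30.8 at Tcf7l1, and 32.2 at Tcf7l2. Between 62.6% and 77.0% of all protein-coding genes had a lower density. The list that set Lef1 and Tcf7l2 highest was ARID1B at E18.5, with 8.42 and 8.57 peaks per 100 kb against a median of 2.96 over protein-coding genes. For TCF7L2, Tcf7l1 was the densest at both stages, with 4.56 and 6.85 per 100 kb, and Lef1 the least dense, with 2.34 and 2.81, against medians of 1.87 and 2.72. Lef1 thus had the fewest TCF7L2 peaks for its length and the highest one. Its TCF7L2 peaks were also the widest, with medians of 926 and 966.5 bp at the stages. At the other genes the medians were 396 to 725.5 bp and 385 to 602 bp, so a low count is not a low covered length. FOXP1 at E18.5 was below its median of 1.68 at all 4 genes, at 1.37 to 1.53. By list, ARID1B had 61 peaks at E15.5 and 63 at E18.5, FOXP1 46 and 13, and TCF7L2 32 and 50. FOXP1 thus had far fewer called peaks at E18.5 than at E15.5, as in the lists as a whole, and its E18.5 list is the shallowest.

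Peaks were classed as promoter where they overlapped the 2000 bp upstream of any TSS, as intronic where they otherwise overlapped the gene body, and as flanking elsewhere. In all, 90 peaks were at promoters, 130 were intronic, and 45 were flanking. Of the promoter peaks, 57 were at a TSS of the TCF/LEF gene itself and 33 at TSSs of other genes only. At the long genes Tcf7l1 and Tcf7l2, intronic peaks prevailed, with 50 of 81 and 59 of 94. Lef1 had 23 flanking peaks of 61, and Tcf7 had 19 promoter peaks of 29 and only 2 intronic ones. At E18.5, promoters held 8 of 13 FOXP1 peaks, 18 of 63 ARID1B peaks, and 16 of 50 TCF7L2 peaks, and 2, 34, and 26 were intronic. On the main chromosomes, the whole lists had 13856 of 24870, 18907 of 68443, and 20416 of 53169 peaks at promoters, in the same order. FOXP1 thus had the highest promoter share in the whole lists too. The median height at the family was close to that of the whole list in each case. At E15.5 it was 3.48 for ARID1B, 4.18 for FOXP1, and 4.10 for TCF7L2, against 3.84, 4.05, and 4.31 over all peaks. At E18.5 it was 3.65, 5.85, and 3.45, against 4.21, 5.71, and 3.50.

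**Figure D1:**
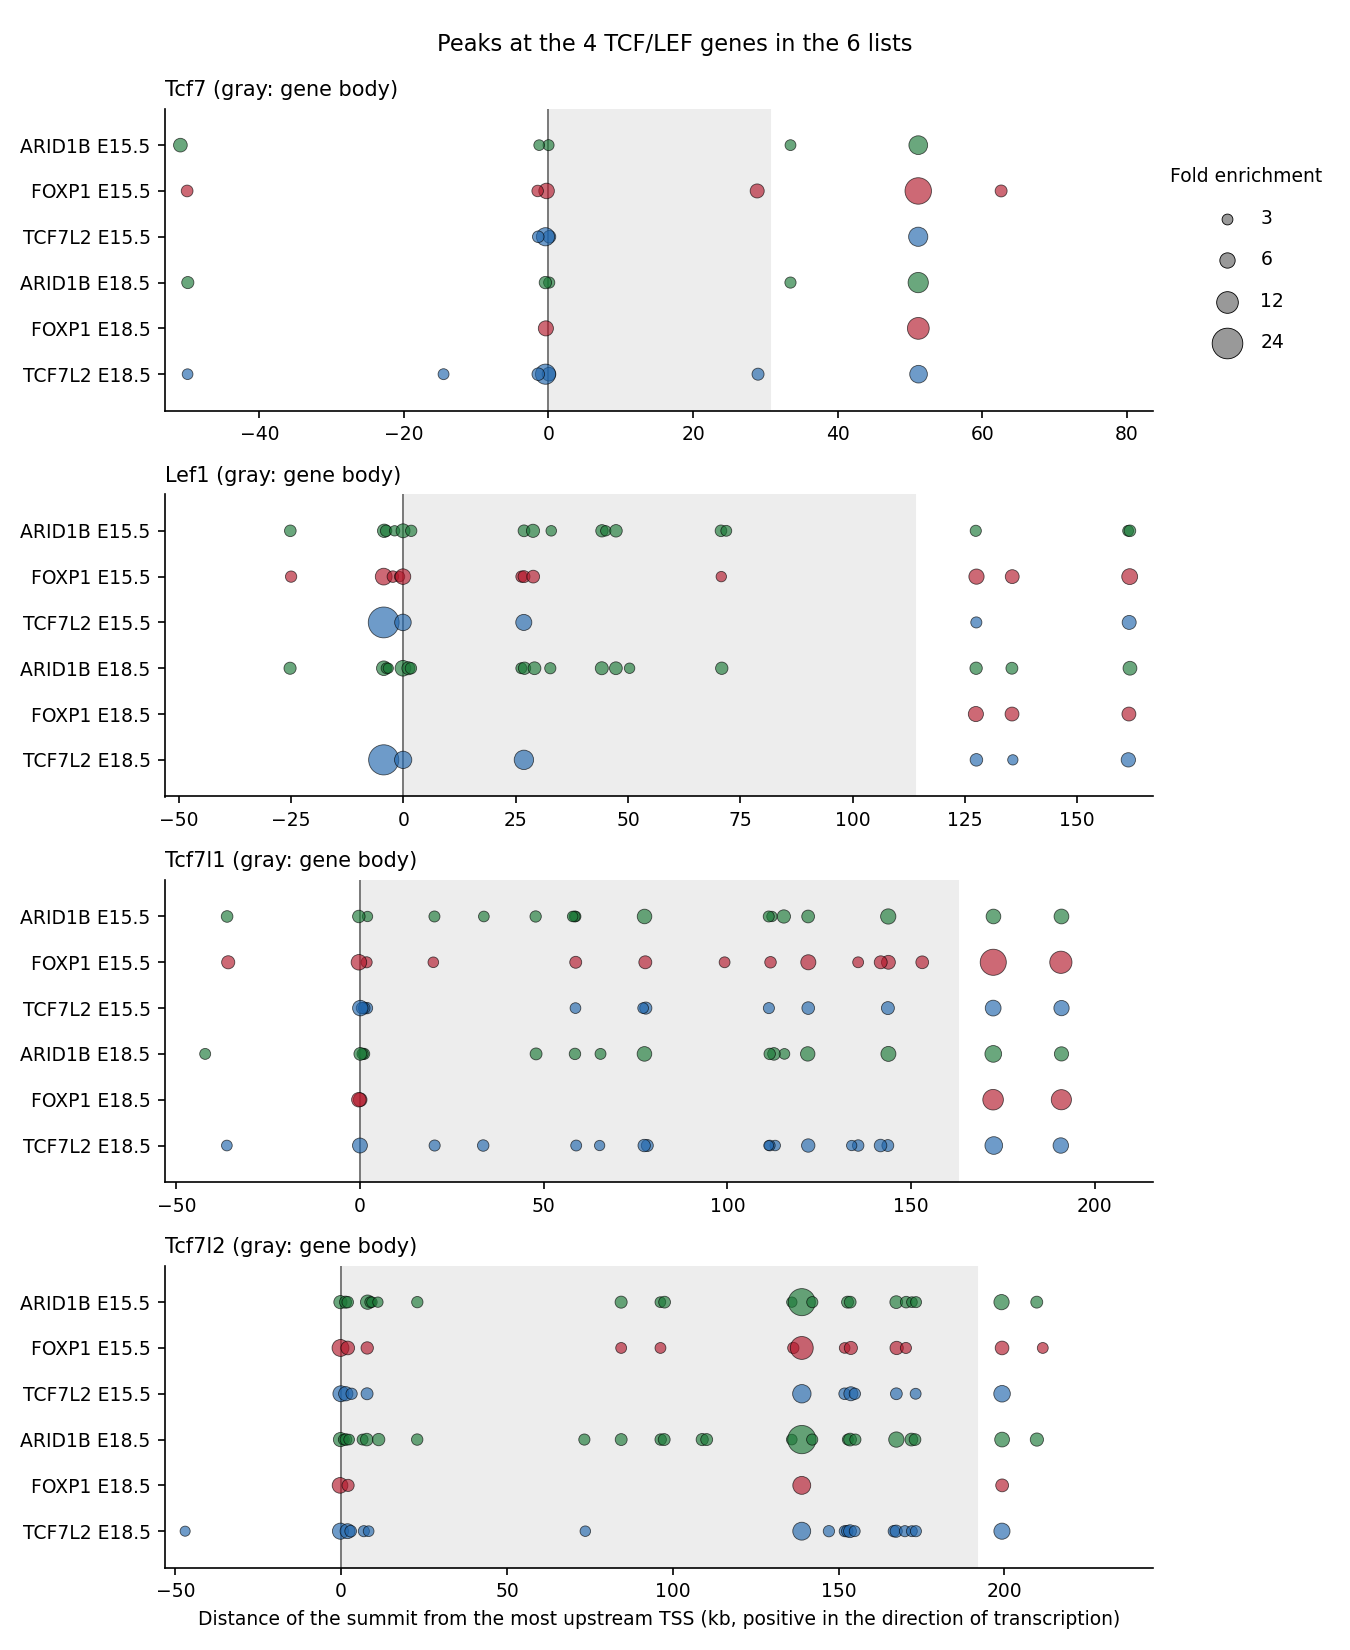
Each point is a peak, placed by the distance of its summit from the most upstream TSS of the gene (kb, positive in the direction of transcription), with 1 row per list and an area proportional to fold enrichment. The gray block is the gene body. The large points are the TCF7L2 peaks 4.4 kb upstream of Lef1 (24.4 and 23.3), the ARID1B peaks in the Tcf7l2 intron (18.8 and 20.5), and FOXP1 peaks at promoters of neighboring genes (up to 18).

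The genes had a peak at an own promoter in 23 of 24 pairs of gene and list. Of all 21951 protein-coding genes, 58.8% had an ARID1B peak at a promoter at E15.5, 61.8% one of FOXP1, and 57.3% one of TCF7L2. The shares at E18.5 were 57.3%, 55.0%, and 61.2%, in the same order. Peaks of all 3 TRs at own promoters were found for 4 of 4 genes at E15.5, against 55.5% of protein-coding genes, and for 3 of 4 at E18.5, against 52.9%. Tcf7, Tcf7l1, and Tcf7l2 had promoter peaks in all 6 lists, as did 51.8% of protein-coding genes. The single pair without a peak was FOXP1 at Lef1 at E18.5. With 4 genes and shares of this size in the background, the counts do not set the family apart.

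At E15.5, FOXP1 had an equal height of 6.20 (4.61 to 8.18) at the promoters of Lef1, Tcf7, and Tcf7l1, and 7.34 (5.59 to 9.47) at that of Tcf7l2. These heights were below the median over genes with a FOXP1 promoter peak, 10.6, and 20.3% to 26.9% of such genes were lower. At E18.5, the FOXP1 heights were 5.85 at Tcf7, 5.41 at Tcf7l1, and 6.30 at Tcf7l2, again below the median of 8.65, and no peak was called at Lef1. Of 911 protein-coding genes whose FOXP1 promoter peak at E15.5 was within 10% of the height at Lef1, 831 (91.2%) had a FOXP1 promoter peak at E18.5 and 80 did not. The pattern of Lef1, a promoter peak in every list except FOXP1 at E18.5, was shared by 444 protein-coding genes in all. Whether FOXP1 was absent from Lef1 at E18.5 or lay under the limit of the shallowest list was not tested.

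ARID1B was lowest at the Tcf7 promoter, with 3.13 (2.2 to 4.33) at E15.5 and 3.93 (2.64 to 5.65) at E18.5. At E15.5, only 4.19% of genes with an ARID1B promoter peak were lower. It was highest at Lef1, with 4.99 (3.79 to 6.47) and 6.31 (4.62 to 8.42), and Tcf7l1 (4.01 and 4.21) and Tcf7l2 (4.46 and 5.19) lay between. The medians over all genes with a peak were 5.17 and 5.61, so that of the 4 genes only Lef1 at E18.5 exceeded the median. Within each stage, the counting intervals of the 4 genes overlapped.

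TCF7L2 itself was highest at the Tcf7 promoter. The height there reached 8.49 (6.76 to 10.5) at E15.5 and 10.4 (8.42 to 12.7) at E18.5, above 82.4% and 93.4% of the genes with a TCF7L2 promoter peak. At Lef1 it was 7.02 (5.46 to 8.90) and 7.66 (5.99 to 9.67), and at the promoter of its own gene 6.50 (5.01 to 8.31) and 6.68 (5.12 to 8.56). At Tcf7l1 it was 6.19 (4.73 to 7.96) and 5.69 (4.27 to 7.45). The medians over genes were 6.40 and 6.57, so the gene of TCF7L2 stood at the middle of the distribution for peaks of its own protein (50.6% and 50.3% of genes lower). The only pair of genes whose intervals did not overlap was Tcf7 and Tcf7l1 at E18.5.

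**Figure D2:**
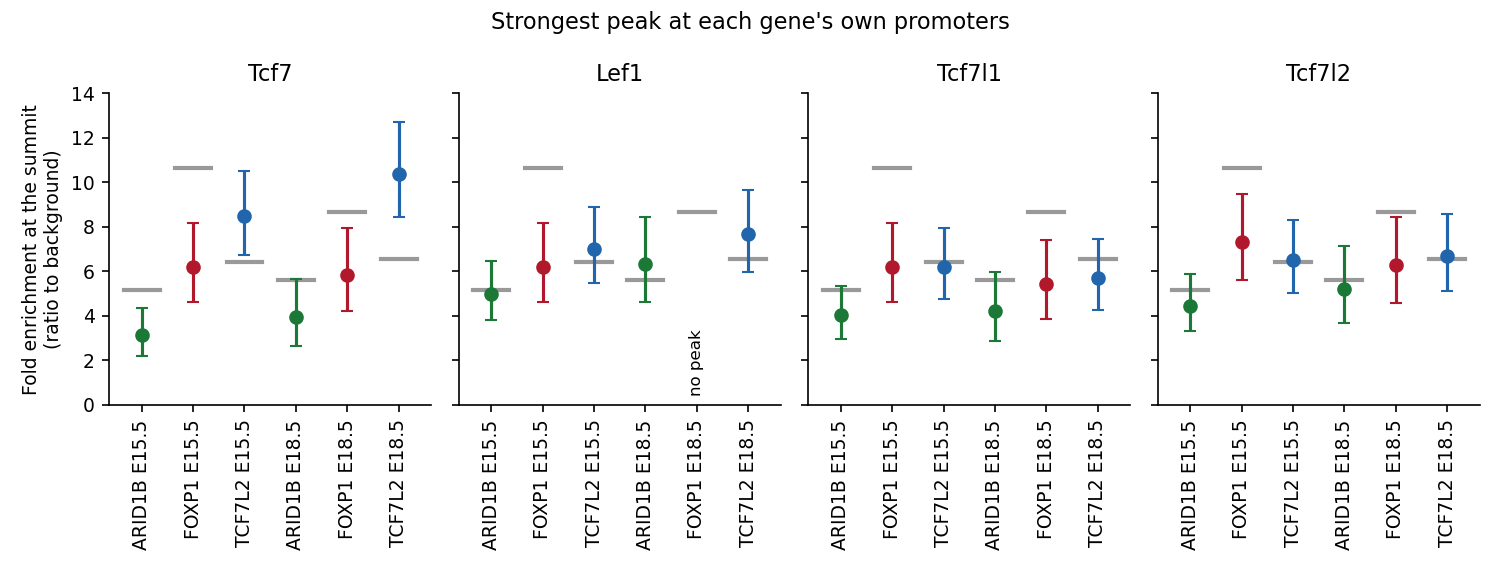
Points give the fold enrichment (ratio to background, linear axis from 0) of the strongest peak at own promoters of each gene in the 6 lists, bars the 95% counting interval, and gray lines the median over all protein-coding genes with a promoter peak in that list. FOXP1 lies below its gray line at all 4 genes, TCF7L2 lies above it at Tcf7 (8.49 and 10.4 against 6.40 and 6.57), and Lef1 has no FOXP1 peak at E18.5.

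Lef1 had the strongest TCF7L2 peak of the family, and it was not at the promoter but 4.4 kb upstream of the TSS, in the first sequence above. Its height reached 24.4 (21.3 to 27.7) at E15.5 and 23.3 (20.3 to 26.7) at the later stage, from 232 and 212 ChIP reads over the summit. In the list, sorted by p-value, it stood at position 10 of 33042 peaks at E15.5 and at position 11 of 53219 at E18.5. The summits of the stages were 3 bp apart, and the peaks were 1787 and 2427 bp wide. ARID1B was far lower at this place, with 4.64 (3.48 to 6.06) at E15.5 and 5.47 (3.91 to 7.46) at E18.5. FOXP1 had 7.21 (5.48 to 9.33) at E15.5 and no peak at E18.5. The summits in the 5 lists lay within 111 bp of each other.

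The heights of TCF7L2 and ARID1B can be set side by side at every locus that holds both, a locus being a union of overlapping peaks of the 3 TRs, by the highest peak of each TR in it. At E15.5, the TCF7L2 height at this place was 5.25 times the ARID1B height, a ratio that 1 of 25584 loci exceeded, where the median locus had 1.04. At E18.5 the ratio was 4.26, exceeded by 2 of 33855 loci, against a median of 0.916. Against FOXP1 at E15.5 it was 3.38, exceeded by 2 of 26374 loci. Without the 1 added to reads and background, the ratios were 5.53, 4.20, and 3.45, and the same numbers of loci exceeded them. The FOXP1 peak at this place was the highest FOXP1 peak of the family at E15.5 without a counterpart at E18.5. Of 1950 FOXP1 peaks outside promoters that were within 10% of its height at E15.5, 1450 (74.4%) overlapped a FOXP1 peak at E18.5 and 500 did not.

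GENCODE vM21 annotates no gene at the place 4.4 kb upstream of Lef1. RefSeq annotates a long non-coding RNA there, Gm36603, from 131101639 to 131107978 on the minus strand, whose start lies 2.5 kb upstream of the Lef1 TSS. The TCF7L2 summits lie within its annotated extent. The printed window has a GC content of 64% and holds TCAAAG, with the center of the match 24 bp from the TCF7L2 summit at E18.5 and at the ARID1B summit of that stage. It holds no complete CTTTGAT.

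The other TCF7L2 peaks of Lef1 were 1 in an intron, 1 at the promoter, and up to 3 beyond the 3′ end. The intronic peak lay 26.8 kb downstream of the TSS, with a height of 6.61 (5.10 to 8.43) at E15.5 and 9.63 (7.74 to 11.9) at E18.5. ARID1B had 3.57 and 3.93 at this place, FOXP1 3.67 at E15.5 and no peak at E18.5. The TCF7L2 height was 1.85 times the ARID1B height at E15.5 and 2.45 times at E18.5, ratios that 1.19% and 0.103% of all loci exceeded. In the second sequence above, CTTTGAT and TCAAAG face each other across 4 bases, and their centers are 5 and 6 bp from the summit at E18.5. The predicted gene Gm42449, which GENCODE marks as yet to be tested, begins in the same intron, and the peaks of ARID1B and FOXP1 partly reach its promoter.

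At the remaining places in the Lef1 gene body, ARID1B had peaks and TCF7L2 had none. Of the 16 places at which any list had a peak at Lef1, 7 held ARID1B alone. Among them were peaks 44.2 kb downstream of the TSS (3.93 and 4.35) and 47.3 kb downstream (4.01 and 4.21), the former just upstream of a start that RefSeq places 45.8 kb into the gene. Beyond the 3′ end lay the only FOXP1 peaks of Lef1 that were called at both stages. At 127.6 kb from the TSS, FOXP1 had 5.95 (4.39 to 7.89) at E15.5 and 5.85 (4.22 to 7.94) at E18.5, and the other lists had 3.16 to 4.05. At 135.5 kb, it had 4.94 and 4.97. At 161.7 kb, all 6 lists had a peak at the promoter of Hadh, a gene of fatty acid oxidation on the other strand, with 6.45 and 4.97 for FOXP1. FOXP1 thus had peaks at E18.5 in the Lef1 window, but all 3 were downstream of the gene.

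Tcf7 had 13 of its 29 peaks at its own promoter. Besides the main peak, 404 to 411 bp upstream of the TSS for TCF7L2, a weaker one lay 1.4 kb upstream, with TCF7L2 at 3.47 and 4.05, and, at E15.5 only, ARID1B at 2.95 and FOXP1 at 3.42. A further TCF7L2 peak, 0.1 kb downstream of the TSS, had 4.10 and 4.82 and no CTTTGAT around its summit at either stage. The main peak and the one 1.4 kb upstream hold CTTTGAT around the TCF7L2 summit at both stages. Under the main peak, the match lies 47 bp from the summit at E18.5, and under the one 1.4 kb upstream 36 bp. The former lies in the first exon of Tcf7 in RefSeq, which starts farther upstream than GENCODE's. At E18.5, ARID1B had a peak within the main TCF7L2 peak, whose height was 2.65 times the ARID1B height, a ratio that 21 of 33855 loci exceeded. At E15.5, the ARID1B peak of the promoter (3.13) had its summit 14 bp from the TSS and did not overlap the main TCF7L2 peak, so that their heights belong to separate peaks. Against FOXP1, the ratios at the stages were 1.37 and 1.78, exceeded by 1.44% and 0.831% of loci.

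In its introns, Tcf7 had peaks only near the 3′ end, 28.9 kb from the TSS, with 5.06 for FOXP1 at E15.5 and 3.72 for TCF7L2 at E18.5. For ARID1B, FOXP1, and, at E15.5, TCF7L2, the highest peaks in the window belonged to a neighbor, Skp1a. This gene codes for the adaptor of SCF ubiquitin ligases. At its promoter, 51.2 kb from the Tcf7 TSS, FOXP1 had 18 (15.1 to 21.2) at E15.5 and 12.2 (9.73 to 15.1) at E18.5, ARID1B 8.99 and 10.5, and TCF7L2 9.42 and 7.99. These peaks overlap the flank of Tcf7 but lie at the start of another gene.

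Tcf7l2 had its strongest peak deep in the gene, 138.9 kb downstream of the TSS, with a peak in all 6 lists. ARID1B had 18.8 (16.3 to 21.5) at E15.5 and 20.5 (17.3 to 24.1) at E18.5, positions 50 of 71442 and 69 of 68472 by p-value. FOXP1 had 13.4 (11 to 16.2) and 8.21 (6.23 to 10.6), and TCF7L2 8.69 (6.94 to 10.8) and 8.21 (6.47 to 10.3). The 6 summits lay within 35 bp. ARID1B led at this place, the reverse of the place upstream of Lef1, and at E18.5 95.3% of loci had a higher ratio of TCF7L2 to ARID1B (0.401 here, 0.916 at the median). The printed window around the ARID1B summit holds no CTTTGA, no forkhead core TGTTTAC, and no E-box CAGCTG on either strand.

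**Figure D3:**
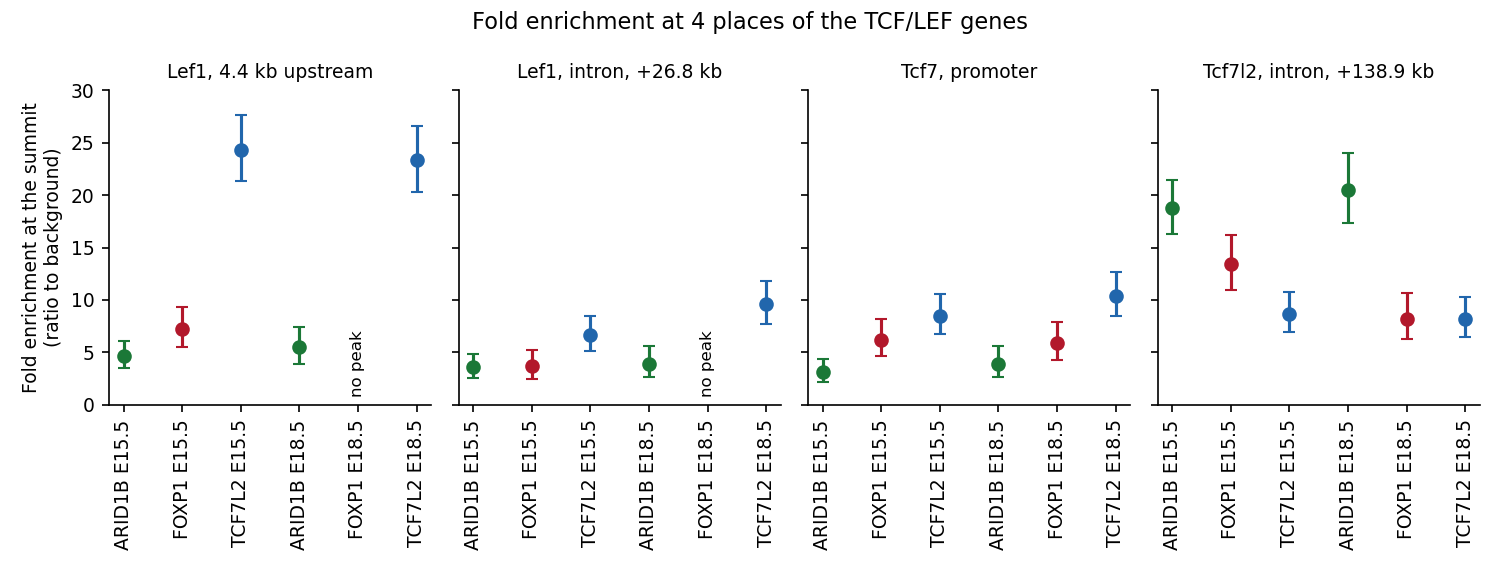
Fold enrichment at the summit (ratio to background, linear axis from 0) of the strongest peak of each of the 6 lists at 4 places, with 95% counting intervals. TCF7L2 leads at both stages upstream of Lef1 (24.4 and 23.3), in the Lef1 intron (6.61 and 9.63), and at the Tcf7 promoter (8.49 and 10.4), whereas ARID1B leads in the Tcf7l2 intron (18.8 and 20.5).

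At the starts of Tcf7l2, the main promoter region held peaks of all 6 lists, and internal starts held weaker ones. The first region serves 9 annotated coding transcripts with the most upstream start codon of the gene. At 152.7, 153.7, and 156.5 kb downstream of it, 3 further groups of TSSs serve 1 coding transcript each, and none of these keeps that start codon. The group at 153.7 kb had the highest TCF7L2 and FOXP1 peaks of the 3. At the place of these peaks, TCF7L2 had 5.04 and 4.27, FOXP1 4.43 at E15.5 and no peak at E18.5, and ARID1B 3.57 and 4.21. RefSeq places a start 153.5 kb downstream of the main one, within the same peaks. A separate ARID1B peak of E15.5 (3.66) reaches the promoter windows of the groups at 152.7 and 153.7 kb. Lef1 has a comparable start 2.3 kb downstream of its main TSS, with 1 coding transcript that lacks the first start codon, but the strongest promoter peak of each list with a peak there, 1211 to 3424 bp wide, reaches the promoter windows of both, and was not assigned to either. Whether a transcript from such a start was made in these samples was not measured.

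Elsewhere at Tcf7l2, most peaks were low. Of its 32 places, 3 held peaks of all 6 lists and 10 a peak of a single list. The third of these, 199.3 kb from the TSS and beyond the 3′ end, had TCF7L2 at 7.02 (5.46 to 8.90) and 6.68 (5.12 to 8.56), ARID1B at 5.97 and 5.61, and FOXP1 at 4.81 and 4.24. No gene of GENCODE vM21 has its promoter there. Between 23.0 kb and 73.3 kb downstream of the TSS, no list had a peak. At 167.4 kb, ARID1B had 4.19 and 6.03, with TCF7L2 at 3.58 and 3.83 and FOXP1 at 4.56 at E15.5 only. The core CTTTGAT lay under a TCF7L2 peak 3.2 kb downstream of the TSS at E15.5, which was low for its list (3.27, with a list median of 4.31). RefSeq annotates a long non-coding RNA on the minus strand, Gm31734, whose start lies 1.4 kb downstream of the Tcf7l2 TSS. This peak thus also lies upstream of that start.

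Tcf7l1, the member known mainly as a repressor, had many low peaks and no outstanding one of its own. Its promoter heights were given above, and the highest peak classed as intronic was that of FOXP1 at E15.5 122.0 kb downstream of the TSS, with 5.82 (4.28 to 7.75). ARID1B had 4.19 and 5.33 there, and TCF7L2 4.10 and 4.60. At 143.8 kb, ARID1B had 5.97 and 5.75, FOXP1 4.94 at E15.5, and TCF7L2 4.31 and 3.61, at a place that also holds the start of the non-coding gene Gm38114. At 77.4 kb, ARID1B had 5.44 and 5.47. These 3 places were alike in holding 5 lists and lacking FOXP1 at E18.5.

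In the Tcf7l1 flank, promoters of neighbors were again the highest, most of all for FOXP1. The promoter of Tgoln1, which codes for a protein of the trans-Golgi network, lies 172.4 kb from the Tcf7l1 TSS and had FOXP1 at 17.5 (14.7 to 20.6) and 10.9 (8.55 to 13.6). ARID1B had 5.53 and 7.15 there, and TCF7L2 6.40 and 7.99. The shared promoter region of Elmod3 and Retsat, 190.8 kb away, had FOXP1 at 12.7 and 10.4, ARID1B at 5.61 and 5.19, and TCF7L2 at 5.98 and 6.13. No CTTTGAT was found around any TCF7L2 summit of the Tcf7l1 window.

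Between the stages, TCF7L2 and ARID1B peaks were mostly kept at the family, and FOXP1 peaks were mostly kept in 1 direction only. Of the 32 TCF7L2 peaks of E15.5, 31 had an overlapping counterpart at E18.5 (96.9%, 95% Wilson interval 84.3% to 99.4%), as did 95% of all TCF7L2 peaks. Of the 50 of E18.5, 29 had a counterpart at the earlier stage (58.0%, 44.2% to 70.6%), against 56.5% of all. The 21 TCF7L2 peaks found only at E18.5 were low, with a median height of 3.17 and a highest of 4.05, while the smaller library of that list held 76.1 M reads against 60.1 M at E15.5. The ChIP reads alone were 76.1 M at E18.5 and 77.5 M at E15.5.

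For ARID1B, 47 of 61 earlier peaks (77.0%, 65.1% to 85.8%) and 48 of 63 later ones (76.2%, 64.4% to 85.0%) had a counterpart, against 78.2% and 85.5% of all ARID1B peaks. For FOXP1, 12 of 46 earlier peaks (26.1%, 15.6% to 40.3%) had a later counterpart, against 34.2% of all, and 13 of 13 later peaks had an earlier one, against 96.3%. The 34 FOXP1 peaks found only at E15.5 had a median height of 3.48 and those found again at E18.5 of 6.33. A peak without a counterpart was not called at the other stage, and since the lists differ in depth it may have been present there.

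Where peaks of a TR overlapped at the stages, their heights were compared by their counting intervals. For TCF7L2, the intervals overlapped in 31 of 31 pairs, with a median ratio of E18.5 to E15.5 of 1.04 (range 0.802 to 1.69). For ARID1B, they overlapped in 47 of 47 pairs, with a median ratio of 1.1 (range 0.648 to 1.62). At E18.5, 37 of these ARID1B pairs and 20 of the TCF7L2 pairs were higher. For FOXP1, they were apart in 3 of 12 pairs, each higher at E15.5: the promoters of Skp1a and Tgoln1 and the intronic place of Tcf7l2. The median FOXP1 ratio was 0.840 (range 0.612 to 1.01). These FOXP1 values depend on the 1 added to reads and background. With reads over background alone, the intervals were apart in 0 of 12 FOXP1 pairs, the median ratio was 0.975 (range 0.708 to 1.16), and 5 of 12 pairs were higher at E18.5. The TCF7L2 and ARID1B intervals overlapped in every pair on that scale too, with median ratios of 1.02 and 1.14. Heights of lists of unequal depth and different enrichment are on different scales, and no test was made of these ratios.

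**Figure D4:**
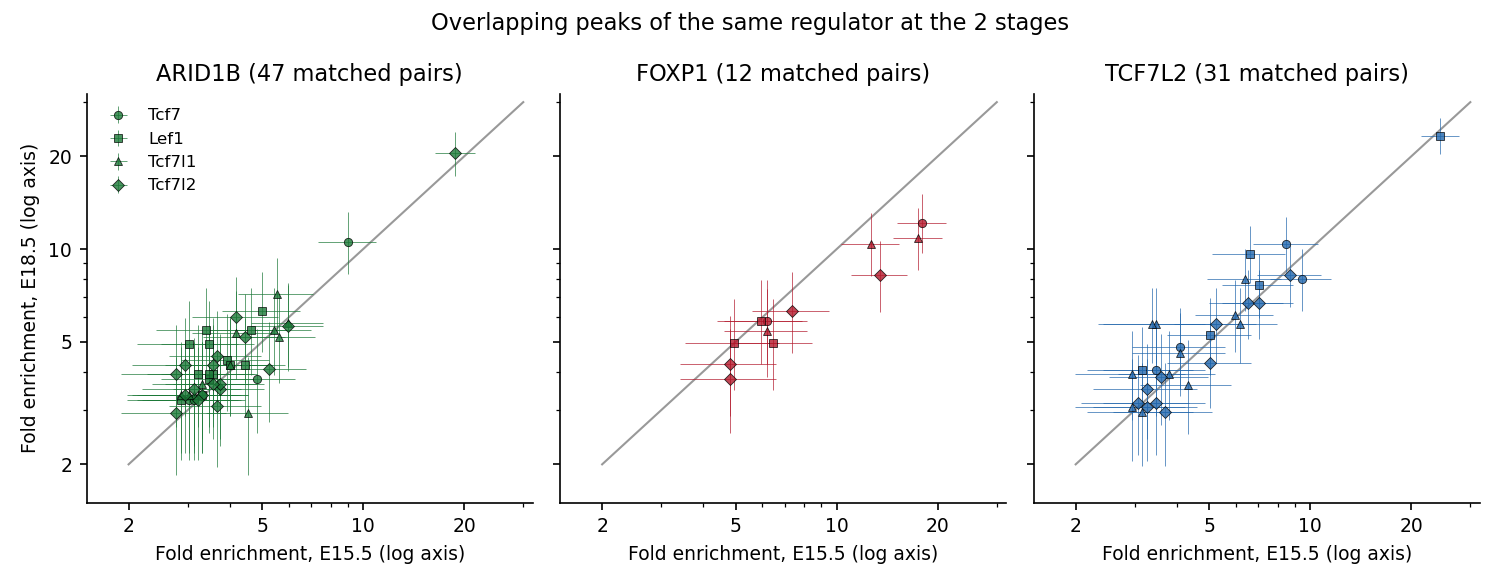
Fold enrichment at E15.5 (x axis) and E18.5 (y axis), both on log axes, of overlapping peaks of the same TR at the TCF/LEF loci, with 95% counting intervals, symbols for the genes, and a gray line where both are equal. ARID1B and TCF7L2 pairs lie near the line, with 37 of 47 and 20 of 31 above it. The TCF7L2 peak upstream of Lef1 is at its upper end (24.4 and 23.3). Of the FOXP1 pairs, 11 of 12 lie below the line, against 7 of 12 without the 1 added to reads and background.

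Over all lists, the peaks fell on 81 separate places. Of these, 10 had peaks in all 6 lists, 24 in a single list, and 70 had none of FOXP1 at E18.5. ARID1B, which has the longest lists, was alone at 24 places, TCF7L2 at 8, and FOXP1 at 4. The 10 places common to all lists were the own promoters of Tcf7, Tcf7l1, and Tcf7l2, the neighboring promoters of Skp1a, Tgoln1, Elmod3 with Retsat, and Hadh, the intronic place of Tcf7l2, and the flanks of Tcf7l2 and Lef1. Counted by stage as loci of overlapping peaks, 23 of 67 (34.3%) had all 3 TRs at E15.5, against 30.1% of all loci, and 12 of 72 (16.7%) at E18.5, against 22.9%. Loci with a single TR were 32 of 67 (47.8%, against 43.8% of all loci) and 42 of 72 (58.3%, against 55.2%). These shares lie near those of all loci.

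The core CTTTGAT was more frequent around the TCF7L2 summits of the family than around those of the whole list, in small numbers. At E15.5, 4 of 32 windows of 200 bp held it on either strand (12.5%), against 2.36% of all TCF7L2 windows. At E18.5, 4 of 50 held it (8.0%), against 2.58%. At E15.5, these 4 windows were those of the Lef1 intron, the main Tcf7 promoter peak, the one 1.4 kb upstream of Tcf7, and the Tcf7l2 intron 3.2 kb from the TSS. At E18.5, a flanking peak 47.0 kb upstream of Tcf7l2 stood in place of the last. With the shorter CTTTGA, which is part of CTTTGAT, 9 of 32 (28.1%) and 10 of 50 (20.0%) windows matched, against 9.73% and 11% of all TCF7L2 windows. The windows overlap between stages and are not independent, and the difference was not tested.

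In the ARID1B windows, 3 of 61 and 1 of 63 held CTTTGAT (4.92% and 1.59%, against 2.52% and 2.54% of all). In the FOXP1 windows, 4 of 46 and 1 of 13 held it (8.70% and 7.69%, against 2.38% and 1.83%). Several of these were the places named above, since the summits of several TRs lie close together at the Tcf7 promoter and in the Lef1 intron. The forkhead core TGTTTAC was in 3 of 46 and 0 of 13 FOXP1 windows (6.52% and 0%, against 2.89% and 2.28%). The E-box CAGCTG, counted for reference, was in 4 of 32 and 7 of 50 TCF7L2 windows (12.5% and 14%, against 16.7% and 17.0%). In the 250 bases upstream of each start that the RefSeq promoter table lists for the 4 genes, no CTTTGAT was found on either strand. A start of Tcf7 farther upstream in the RefSeq gene annotation is not in that table and was not searched. Of the 32851 promoters in the table, 3.21% hold a match. The main starts of Tcf7, Tcf7l1, and Tcf7l2 lay in sequence with a GC content of 76.0%, 73.6%, and 72.8%, and that of Lef1 in 66.4%, against a median of 52.4% over all promoters. The internal starts of Tcf7l2 and of Lef1 at 153.5 and 45.8 kb had 40.8% and 44.8%, and the latter window holds 2 matches to CTTTGA.

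The promoters of the wider pathway were taken from fixed gene lists. All 20 genes of nuclear partners had a promoter peak in all 6 lists, against 51.8% of protein-coding genes, among them Ctnnb1 (β-catenin), Bcl9 and Pygo2 (its coactivators), and the corepressors Tle1 to Tle4. At the earlier and the later stage, their median TCF7L2 height was 7.86 and 8.87 and their median FOXP1 height 13.1 and 10.6. Their median ARID1B height was 6.28 and 7.15. For all 3 TRs these were above the medians over all genes with a peak. Ctnnb1 had TCF7L2 at 13.8 and 14.9 and FOXP1 at 19.4 and 13.8, higher than any TCF/LEF promoter in the same list. Of 12 target genes of the pathway, 8 had a promoter peak in all 6 lists, which is not far from that share, and Zcchc12 had none. Dkk1, a secreted Wnt antagonist, had only a weak ARID1B peak at E18.5 (3.37). Axin2, the feedback inhibitor that is the most used target of the pathway, had the highest TCF7L2 promoter peaks of this list, 32.2 and 37.5, with 6.06 and 7.01 for ARID1B and 9.11 and 8.21 for FOXP1. Znrf3, which codes for a ligase that removes Wnt receptors, had TCF7L2 at 14 and 15, and Sp5 at 10.5 and 10.8. The TCF7L2 height at the Tcf7 promoter (8.49 and 10.4) was close to that at Sp5, and those at Lef1, Tcf7l1, and Tcf7l2 were 5.69 to 7.66. The median of the targets with a peak was 7.29 and 7.28, and that of all genes with a peak 6.40 and 6.57.

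By the heights of their strongest promoter peaks over the 6 lists, other genes resembled each member. Likeness was the Euclidean distance of the log2 heights over 11218 autosomal protein-coding genes with a promoter peak in every list. Nearest to Tcf7l2 were 2900026A02Rik (0.093), Ak3 (0.137), and Kif26b (0.157), and nearest to Tcf7l1 were Plekhh1 (0.139), Pcolce2 (0.146), and Fhod3 (0.186). Tcf7 had more distant neighbors, Fgfrl1 (0.345), Yap1 (0.588), and Npas3 (0.632). At E15.5, these 3 genes had TCF7L2 heights of 8.90 to 9.42 and ARID1B heights of 3.04 to 4.37. Lef1, without a FOXP1 peak at E18.5, could not be placed in this way.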

How the data were processed

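Peaks in the WT embryonic cortex were taken from 6 lists, 1 for each TR and stage, which stand for 24 libraries. Per the methods of the study and the submitters' processing notes, the authors mapped the reads with BWA 0.7.15 (genome build GRCm38, mm10), used SAMtools to keep those of high mapping quality, and called narrow peaks on merged replicates against merged input with MACS2 2.2.7, with a constant background and reads extended to 200 bp. Sources used here do not say how duplicates were handled. The deposited lists hold the ratio of summit reads to background with 1 added to both (fold enrichment), the p-value and q-value, each as −log10, and a score, which was not used. Labels name the third antibody TCF4, and the name TCF7L2 follows the study's list of antibodies.

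From these files, the background and the reads at each summit were solved from the Poisson relation between fold enrichment and p-value in each list (SciPy 1.17.1, tested on simulated data), which matched 100% of the pairs within 0.01 of −log10 p, leaving out p-values too small to compute. Library depths follow from this background for a mappable genome of 1870000000 bp. From the reads at each summit, exact 95% Poisson intervals were derived. Peaks were assigned to genes and TSSs of GENCODE vM21 (the study used vM23), motifs were searched in 200 bp around summits, and sequences were read from RefSeq's GRCm38 assembly with pysam 0.24.0. RefSeq starts came from its promoter table. Printed sequences keep clear of exons of coding genes except for a site of 30 bases. Shares have 95% Wilson intervals where given.

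The genes, lists, and places named were chosen with earlier results of these data known. All 4 members are named, with the strongest promoter, intronic, and flanking peaks by p-value, groups of own TSSs within 500 bp of each other, places with all 3 TRs at both stages, the nearest genes by promoter heights, and neighbors whose promoters hold peaks. Alternatives changed the threshold, the flanks, the promoter, the overlap, the motif, and, added after seeing the data, the 1 in the fold enrichment. Protein sequences of the members are not analysed here. Some cortical marker genes are not reported here.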

Additional observations from a re-analysis of the deposited data

How the results depend on the processing

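No paired analysis was possible because there is 1 list for each TR and stage, read as a call on merged replicates, and no replicate has a list of its own to pair. For the same reason no library could be left out in turn. Of 69 alternative values, 51 stayed near the main ones and 18 moved. With a −log10 p of at least 15, 77 of the 265 peaks remained, promoter peaks of all 3 TRs were left at 2 of 4 genes for E15.5 and at 0 for E18.5, loci with all 3 TRs numbered 8 and 4, and 86.7% of the TCF7L2 peaks at E18.5 were shared. With a fold enrichment of at least 4, 113 peaks remained, 11 loci at E15.5 had all 3 TRs, and the shares of peaks found at the other stage were 94.4% for ARID1B at E15.5, 45.8% for FOXP1 at E15.5, and 84.2% for TCF7L2 at E18.5. With flanks of 10 kb, 7 loci had all 3 TRs at E18.5. With summits within 250 bp, 61.9% of ARID1B peaks at E18.5 and 71.9% of TCF7L2 peaks at E15.5 were shared. With CTTTGA, 28.1% and 20.0% of the TCF7L2 windows matched. In an alternative chosen after seeing the data, reads over background without the added 1, the counting intervals were apart in 0 FOXP1 pairs rather than 3, and their median ratio of E18.5 to E15.5 was 0.975 rather than 0.840. A higher threshold leaves fewer peaks by construction, and the cause of the other moves was not tested. The lowest FOXP1 peak at E18.5 had a fold enrichment of 3.21, and the part of depth in the fewer peaks of that list was not tested.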
